A study of Mus musculus with 7 samples.

Results

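Acadl, Acadm, Hadh and Ucp3 are 4 of the 203 named genes measured by a small array in soleus, a slow postural muscle of the calf. Their spots were found by gene symbol, 1 for each gene, and the set was proposed with earlier results of these data known. The samples came from wild-type 129/SV mice kept as cage controls, 7 samples in 1 group with 1 array each, and no treated or mutant group stands beside them. No label used here gives age, sex or the number of animals, so the spread between samples may be partly technical. The title of replicate 5 carries the code C16 and the other 6 carry C15, codes that the labels do not explain. Total RNA of muscle cryosections was copied with gene-specific primers and a radioactive label, so the signal of a spot depends on its own primer and probe as well as on its transcript.

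Beta-oxidation shortens fatty acids inside mitochondria by repeated rounds of the same 4 reactions, and slow muscle relies on it at rest and during sustained work. Acadl and Acadm encode the acyl-CoA dehydrogenases of long and medium chains, which open each round by removing hydrogen from the chain. Hadh encodes the 3-hydroxyacyl-CoA dehydrogenase of medium and short chains, which acts at the third step. Ucp3, uncoupling protein 3, is no enzyme of the cycle. It is a carrier of the inner mitochondrial membrane found mainly in skeletal muscle, and its transcript is known to follow the supply of fatty acids. Nuclear receptors of the PPAR and ERR families are textbook regulators of such genes.

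Since the question asked of these genes is whether their transcripts vary together, the RefSeq sequence of the 250 bases before each gene's start is shown, in the GRCm38.p6 build and read in the direction of the gene. Capitals mark the nuclear receptor half-site AGGTCA on either strand.
Acadl (chr1:66863310-66863559, minus strand): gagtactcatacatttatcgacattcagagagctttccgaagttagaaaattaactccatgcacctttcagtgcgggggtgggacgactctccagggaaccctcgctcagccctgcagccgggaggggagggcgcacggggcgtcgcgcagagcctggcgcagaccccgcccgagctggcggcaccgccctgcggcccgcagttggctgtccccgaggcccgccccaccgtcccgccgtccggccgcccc
Acadm (chr3:153944644-153944893, minus strand): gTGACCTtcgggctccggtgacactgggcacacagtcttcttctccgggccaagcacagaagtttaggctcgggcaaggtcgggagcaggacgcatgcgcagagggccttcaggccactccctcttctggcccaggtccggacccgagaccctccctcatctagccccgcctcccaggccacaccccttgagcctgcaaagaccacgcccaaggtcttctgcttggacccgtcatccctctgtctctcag
Hadh (chr3:131272102-131272351, minus strand): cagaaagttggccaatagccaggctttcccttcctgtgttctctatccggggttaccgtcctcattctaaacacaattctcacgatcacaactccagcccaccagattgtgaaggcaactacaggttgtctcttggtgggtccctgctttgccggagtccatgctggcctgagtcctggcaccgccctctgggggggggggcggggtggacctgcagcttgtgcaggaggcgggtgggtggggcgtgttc
Ucp3 (chr7:100472741-100472990, plus strand): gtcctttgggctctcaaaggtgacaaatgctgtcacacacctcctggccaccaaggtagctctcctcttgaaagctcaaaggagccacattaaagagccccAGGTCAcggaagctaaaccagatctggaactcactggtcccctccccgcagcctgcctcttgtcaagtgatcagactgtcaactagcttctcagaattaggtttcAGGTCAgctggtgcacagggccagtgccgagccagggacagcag
All 4 genes had a promoter entry. Ucp3 held the half-site 2 times, in the direction of the gene, with first bases 149 and 44 bases before the start. Acadm held it 1 time, on the opposite strand, beginning 249 bases before the start, where it is also a match to the longer form AAGGTCA that contains it. Acadl and Hadh had no match in this window. Of 32851 promoter windows of the same length, 14.0% held AGGTCA at least 1 time, 1.36% at least 2 times, and 4.08% held AAGGTCA. The GC box GGGCGG, searched on both strands, was found 4 times before Acadl and 2 times before Hadh, and not before Acadm or Ucp3, against 32.7% of all windows with at least 1 match. GC content was 68% for Acadl, 64% for Acadm, 59.6% for Hadh and 54.8% for Ucp3, with a median of 52.4% over all windows. These matches describe the letters of the windows, and the array measured no binding.

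Values below are deposited signals in percent of the array sum. The 10th percentile of an array served as its floor, and ran from 0.02% in replicate 5 to 0.13% in replicate 1. A gene was called above the floor where it exceeded 2 times that value on all 7 arrays. All 4 genes were above it, as were 44 of the 203 genes. The markers of fibres and muscle that were on the array (Myh7, Myh1, Myh2, Myh4, Des, Mb and Ttn) were above the floor as well. In a piece of whole muscle, fewer cells of a type and less RNA per cell cannot be told apart.

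Acadl, the long-chain enzyme, had its lowest signal, 0.41%, in replicate 3, a median of 0.48% and its highest signal, 0.65%, in replicate 6. Its mean was 0.494% ± 0.0838 (SD, n = 7), a coefficient of variation of 17.0%. Replicates 5 and 6, at 0.56% and 0.65%, were the high samples, and the other 5 lay between 0.41% and 0.48%. The signal was 3.46 to 28 times the array floor.

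Acadm, the medium-chain enzyme, ran from 0.13% in replicate 3 over a median of 0.20% to 0.45% in replicate 1. Its mean was 0.256% ± 0.120 (SD, n = 7), with a coefficient of variation of 46.9%. The samples fell apart into 3 above the mean, replicates 1, 2 and 6 at 0.45%, 0.32% and 0.35%, and 4 at or below 0.20%. Acadm ranged from 2.22 times the floor in replicate 7, the lowest such value of the 4 genes, to 10 times in replicate 5. With 4 decimals deposited, rounding alone can shift the value of replicate 3 by 3.85% of its size.

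Hadh, the hydroxyacyl-CoA dehydrogenase, ran from 0.52% in replicate 3 over a median of 0.70% to 0.77% in replicate 2. Its coefficient of variation was 13.5%, the smallest of the 4 genes. Replicates 3 and 4, at 0.52% and 0.59%, were the low samples, and the other 5 lay between 0.67% and 0.77%. Hadh never came closer to the floor than 5.15 times.

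Ucp3, the carrier, ran from 0.17% in replicate 5 over a median of 0.24% to 0.68% in replicate 7. Its mean was 0.320% ± 0.175 (SD, n = 7), and its coefficient of variation, 54.7%, was the largest of the 4. Replicate 7 stood 4.00 times above replicate 5, with replicates 1 and 2 next at 0.39% and 0.32%. The gap below replicate 7 was not large enough, against the whole range, to mark that sample as an outlier on the quantile-normalized log2 scale. Ucp3 ranged from 3.0 times the floor in replicate 1 to 8.5 times in replicate 5.

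**Figure D1:**
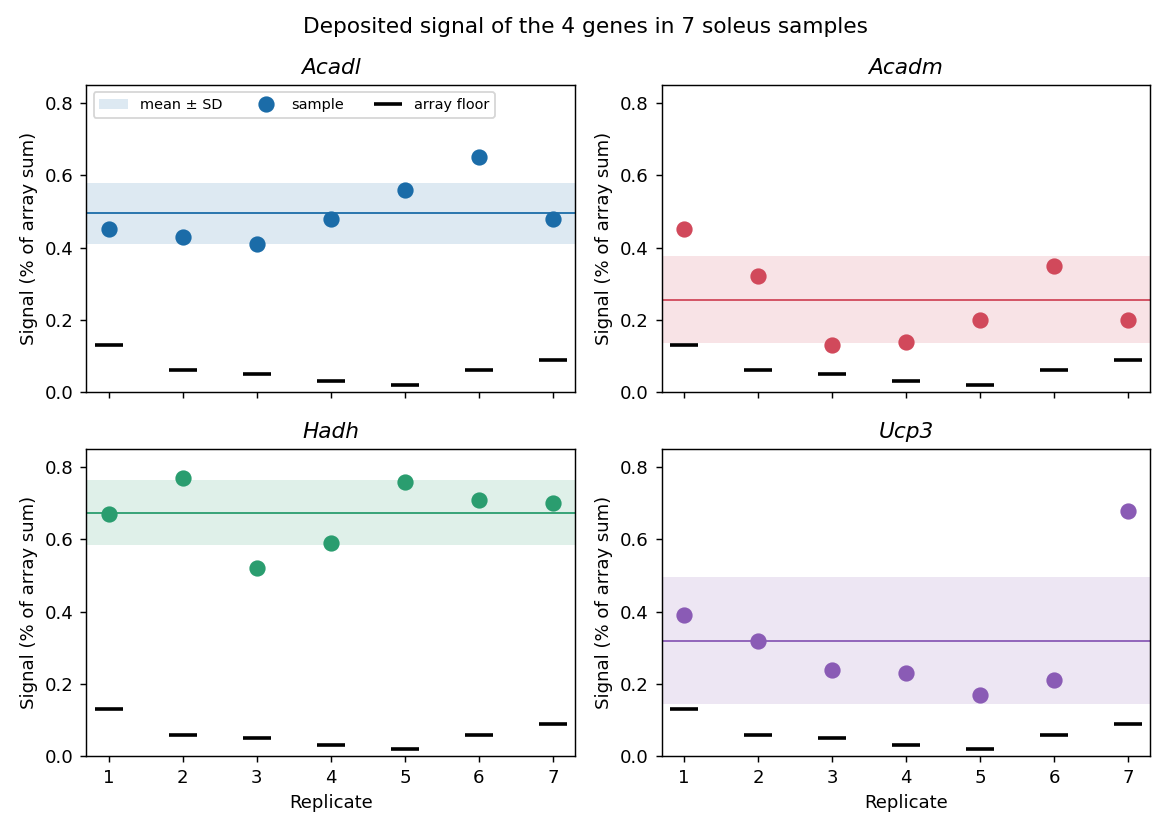
Deposited signal of Acadl, Acadm, Hadh and Ucp3 (percent of array sum) in each of the 7 replicates, with the mean as a line, ± 1 SD as a band, and the floor of each array as a black dash. Acadl and Hadh stay within 0.41% to 0.77%, while Acadm spans 0.13% to 0.45% and Ucp3 0.17% to 0.68%.

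Acadl and Hadh varied less between samples than Acadm and Ucp3 on all scales on which the SD was computed but that of equal medians. It was not computed after normalization of the genes above the floor alone. To compare arrays, values were quantile-normalized over all spots and taken as log2. On that scale the SD over the 7 samples was 0.23 for Acadl, 0.20 for Hadh, 0.53 for Acadm and 0.44 for Ucp3. In deposited log2 values it was 0.23, 0.20, 0.68 and 0.67 in the same order. Among the 44 genes above the floor, ordered from the smallest deposited SD, Hadh ranked 6, Acadl 7, Ucp3 38 and Acadm 39. By quantile-normalized SD they ranked 7, 14, 35 and 38. The median SD of those 44 genes was 0.34 in deposited and 0.26 in quantile-normalized values, and over all 203 genes 0.68 and 0.25. With any 1 replicate left out, the quantile-normalized SD stayed between 0.19 and 0.26 for Acadl, 0.15 and 0.22 for Hadh, 0.45 and 0.55 for Acadm, and 0.31 and 0.52 for Ucp3. Scaling the arrays to equal medians turned the order, to 0.74 for Acadl, 0.64 for Hadh, 0.51 for Acadm and 0.44 for Ucp3. These medians themselves lay near the floor, from 0.06% to 0.20%. On the log2 scale they lay from 0.68 below to 1.06 above their mean over arrays. Differences in spread between the genes were not tested.

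**Figure D2:**
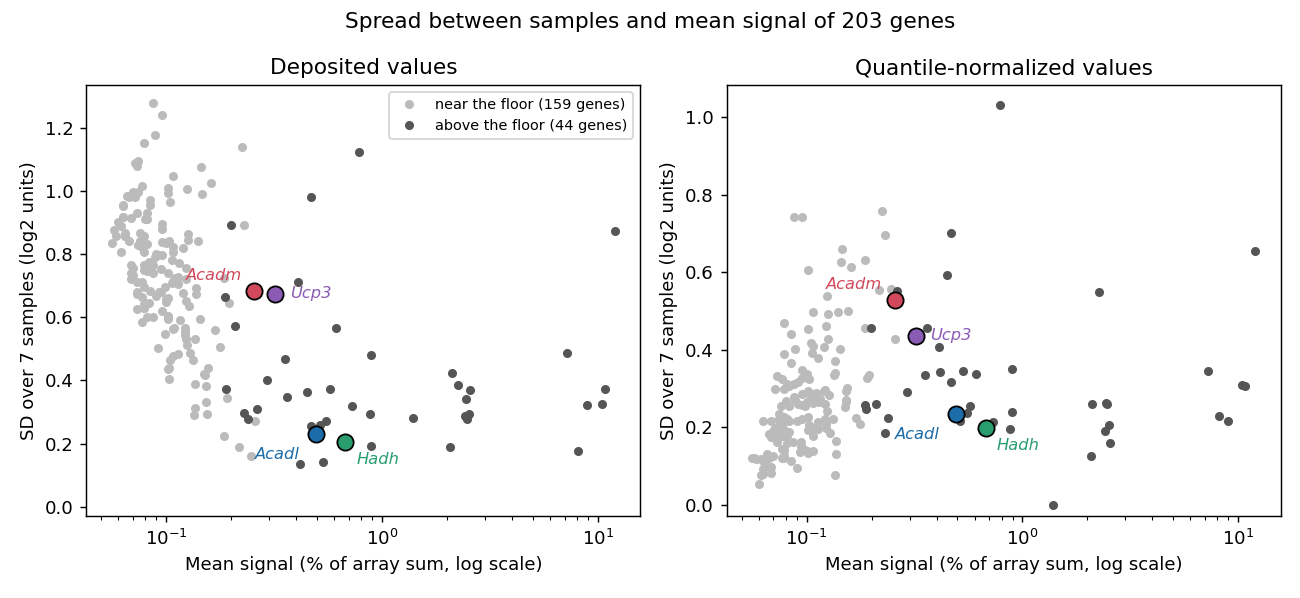
SD over the 7 samples (log2 units) against mean deposited signal (percent of array sum, log axis) for 203 genes, in deposited values on the left and after quantile normalization on the right. In both panels Acadm and Ucp3 lie above Acadl and Hadh.

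Deviations here are from a spot's own mean over samples. The median deviation of the spots around Acadm had the gene's sign on all arrays, though close to 0 in replicates 2 and 6. For Ucp3 the signs matched on some arrays and not on others. Ucp3 sits at number 3, letter O, of the array grid, with 6 spots within 2 numbers and 2 letters. They are Dgat1, Pole2, Top1, Aldoa, and the 28S ribosomal RNA spot and the unnamed spot that are left out of the array sum. Dgat1 and Pole2 return below among the genes most similar to Ucp3, so the 2 observations share spots. In replicate 7, 5 of the 6 neighbours lay above their own mean over samples, by a median of 0.61 log2 units, against 0.75 for Ucp3 itself. In replicates 3 and 4, 0 of the 6 did, with medians of -0.23 and -0.07, while Ucp3 lay above its own mean by 0.14 and 0.03. In replicates 5 and 6 the neighbours had medians of -0.10 and -0.09, against -0.55 and -0.49 for Ucp3. In replicates 1 and 2 the medians were -0.01 and 0.25, against 0.03 and 0.09. Acadm sits at number 19, letter B, with 14 such spots, of which 12 were near the floor. In replicate 1, 12 of the 14 lay above their own mean, by a median of 0.31 against 0.65 for Acadm. In replicates 3 and 4 only 2 of the 14 did, with Acadm 0.36 and 0.34 below its mean. In replicates 2 and 6 the neighbours had medians of 0.01 and 0.02, against 0.40 and 0.47 for Acadm. In replicates 5 and 7 these medians were -0.08 and -0.16, against -0.03 and -0.79 for Acadm. For Acadl, with 24 such spots, and Hadh, with 17, the median deviation of the neighbours stayed between -0.17 and 0.18 on all arrays. Outside replicate 1, the medians around Acadm, from -0.16 to 0.02, lay within that range too. The neighbours' sign differed from the gene's in replicates 2 and 4 for Acadl and in replicates 1 and 6 for Hadh. It matched the gene's sign on the other arrays. With a quadratic trend in grid position removed from each array, the SD was 0.34 for Acadm, 0.25 for Ucp3, 0.16 for Acadl and 0.18 for Hadh. The part of position in these values was not tested further.

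The ratio of the Acadl to the Acadm signal differed 3.43-fold between samples. It was 1.0 in replicate 1, 1.34 in replicate 2, 1.86 in replicate 6, 2.40 in replicate 7, 2.80 in replicate 5, 3.15 in replicate 3 and 3.43 in replicate 4. Its mean was 2.28 ± 0.918 (SD, n = 7). Any scaling of a whole array cancels in this ratio, but the efficiency of the primers and probes does not. Its size therefore says nothing of the ratio of the transcripts, and only its change between samples can be read. Rounding leaves the order of the samples as it is except between replicates 4 and 3, whose rounding bounds of 3.28 to 3.59 and 3.0 to 3.32 overlap.

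In deposited values, most of the change in this ratio lay in Acadm. The variance of log2 Acadm was 0.467 and that of log2 Acadl 0.0536, a quotient of 8.71. The SD of the log2 ratio was 0.66 (n = 7) and lay between 0.51 and 0.72 with 1 replicate left out, the lowest without replicate 1. Of the 946 pairs among the 44 genes above the floor, 68.2% had a smaller SD of their log2 ratio, and the median over these pairs was 0.52. By contrast, the ratio of Acadl to Hadh had an SD of 0.23, with 4.44% of the pairs smaller, with its lowest value, 0.558, in replicate 2 and its highest, 0.915, in replicate 6. The ratio of Acadm to Hadh had an SD of 0.58 and ran from 0.237 in replicate 4 to 0.672 in replicate 1. These places among pairs are descriptions of the same 7 arrays.

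In deposited values, ratios to Ucp3 varied more than those among the enzymes. The SD of the log2 ratio was 0.79 for Acadl over Ucp3, 0.85 for Acadm over Ucp3 and 0.68 for Hadh over Ucp3. Replicate 7 gave the lowest ratio in all 3, at 0.706, 0.294 and 1.03. The highest came from replicate 5 for Acadl and Hadh, at 3.29 and 4.47, and from replicate 6 for Acadm, at 1.67. All 3 share the values of Ucp3, so they are not separate observations. This order did not hold with the floor subtracted or the position trend removed. With the floor subtracted, Hadh over Ucp3 had an SD of 0.74, below the 0.82 of Acadl over Acadm. With the position trend removed, Acadl over Ucp3 ran from 1.41 to 2.21 and Acadl over Acadm from 1.48 to 2.81.

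The lowest Acadl to Acadm ratio came from the array with the highest floor, replicate 1 at 0.13%, and replicates 4 and 5, with floors of 0.03% and 0.02%, had ratios of 3.43 and 2.80. Across the 7 samples, log2 ratio and log2 floor gave Pearson r = -0.716 (exact permutation p = 0.0730, two-sided) and Spearman rho = -0.775 (exact permutation p = 0.0492). Without replicates 1 and 5, farthest from the median floor, r was -0.515. This single relation was chosen after the values were seen. With the floor subtracted, the ratio was lowest in replicate 1, at 1.0, and highest in replicate 3, at 4.50, with an SD of 0.82 on the log2 scale. After quantile normalization it ran from 1.0 to 3.04, and with the position trend removed as well from 1.48 in replicate 2 to 2.81 in replicate 7, with an SD of 0.34. In replicate 1 both genes have the same deposited value, 0.45%. Floor subtraction and quantile normalization therefore leave the ratio of that sample at 1.0 whatever its floor.

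**Figure D3:**
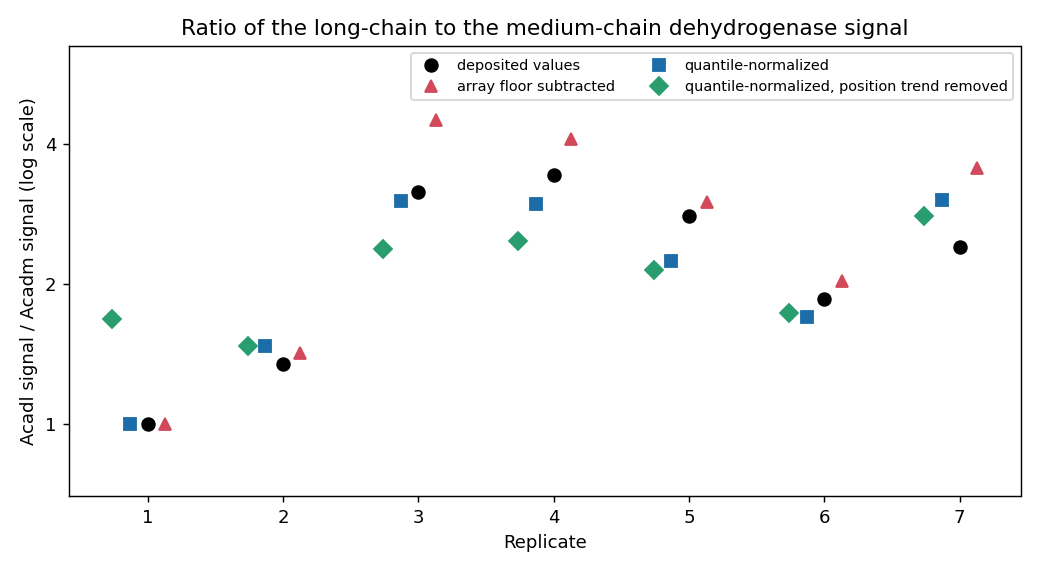
Acadl signal over Acadm signal (log axis) in each of the 7 replicates, from deposited values, after subtraction of the array floor, after quantile normalization, and after quantile normalization with the position trend removed. Replicate 1 is at 1.0 in the first 3 versions, since both deposited signals were 0.45% there, and at 1.68 in the last.

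Of the single genes, Ucp3 came closest to following the floor. Its deposited log2 signal and the log2 floor gave r = 0.766 (exact permutation p = 0.0429, adjusted p = 0.0596 over 203 genes), with rho = 0.811 (exact permutation p = 0.0349) and r = 0.733 without replicates 1 and 5. For Acadm r was 0.598 (adjusted p = 0.194, exact permutation p = 0.160) with rho at 0.655 (exact permutation p = 0.124), and r was 0.479 without those replicates. For Acadl r was -0.290 (adjusted p = 0.582, exact permutation p = 0.536) with rho at -0.200 (exact permutation p = 0.668). For Hadh r was 0.0225 (adjusted p = 0.966, exact permutation p = 0.966) with rho at 0 (exact permutation p = 1). Without the same 2 replicates these were 0.112 and 0.549. None of the 4 genes passed the adjusted threshold of 0.05. For comparison, 70% of all 203 genes passed it, and 9.09% of the 44 genes above the floor. The median r was 0.939 for the 159 genes near the floor and 0.116 for the 44 above it.

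None of the 6 pairs of these genes passed the test for covariation. Pearson's r on the quantile-normalized log2 scale was tested two-sided against the 5040 ways to pair the samples. The p-values were adjusted (Benjamini-Hochberg) across the 20301 pairs of genes whose values varied. Of all those pairs, 11.3% had an unadjusted exact p under 0.05, and 0 passed after adjustment. Of the 6 member pairs, 0 had an unadjusted exact p under 0.05.

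Acadm and Hadh gave the largest r, 0.633 (95% interval -0.229 to 0.939; exact permutation p = 0.121, adjusted p = 0.534), with rho = 0.364 (exact permutation p = 0.429). Replicate 7, lowest in both after quantile normalization, weighed on this value, which was 0.157 without replicates 1 and 7 and 0.209 without replicate 7 alone. The 2 chain-length enzymes, Acadl and Acadm, gave r = -0.209 (95% interval -0.831 to 0.646; exact permutation p = 0.632, adjusted p = 0.883) and rho = -0.222 (exact permutation p = 0.643). Without replicates 1 and 7 it was -0.506. After quantile normalization, replicate 6 was high in both genes, and replicate 1 was lowest in Acadl and highest in Acadm. Acadl and Hadh gave r = 0.0783 (95% interval -0.717 to 0.785; exact permutation p = 0.883, adjusted p = 0.970) with rho = -0.132 (exact permutation p = 0.793), and -0.800 without replicates 1 and 7.

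Ucp3 had a negative r with each of the enzymes on this scale. With Acadm it was -0.586, with a 95% interval of -0.929 to 0.299 (exact permutation p = 0.164, adjusted p = 0.579; rho = -0.613, exact permutation p = 0.153), and -0.405 without replicates 1 and 7. With Acadl it was -0.492, with a 95% interval of -0.908 to 0.415 (exact permutation p = 0.264, adjusted p = 0.669; rho = -0.243, exact permutation p = 0.593), and -0.172 without the same replicates. With Hadh it was -0.364, with a 95% interval of -0.877 to 0.536 (exact permutation p = 0.407, adjusted p = 0.772; rho = 0.0734, exact permutation p = 0.873), and 0.766 without replicates 2 and 7. The intervals of all 6 pairs, approximate ones from Fisher's z transformation, hold values of both signs, so 7 samples do not settle these relations.

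**Figure D4:**
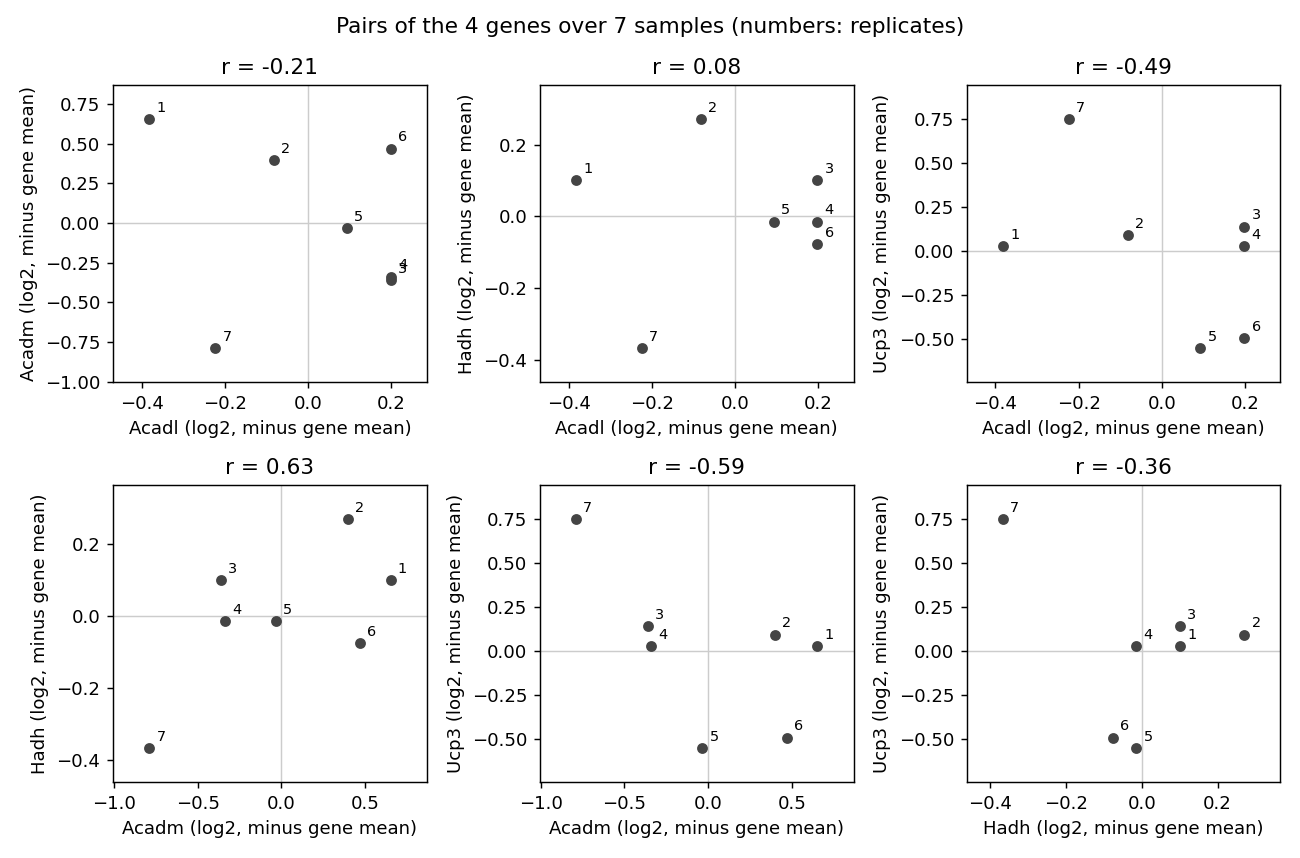
The 6 pairs of the 4 genes, each point a replicate with its number, on the quantile-normalized log2 scale minus the mean of each gene. Replicate 7 lies at a far corner in the panels of Ucp3 with Acadm and with Hadh, and in that of Acadm and Hadh (r = 0.63). In the panel of Acadl and Ucp3 it is highest in Ucp3, while replicate 1 is lowest in Acadl.

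The direction of most of these relations depended on the scale. In deposited values r was 0.251 for Acadl and Acadm, 0.207 for Acadm and Ucp3 and 0.107 for Hadh and Ucp3, all of opposite sign to the quantile-normalized values. There, 55.3% of all gene pairs had an unadjusted exact p under 0.05 and none of the 6 did. With equal medians, Acadl and Hadh reached r = 0.954 (exact permutation p = 0.00119, adjusted p = 0.102), a scaling that shifts all genes of an array alike. Acadm and Hadh was the single pair that stayed positive under every scale and with every replicate left out, from 0.209 to 0.771. Leaving out replicate 5, the sample with the other title code, changed the sign of none of the 6.

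**Figure D5:**
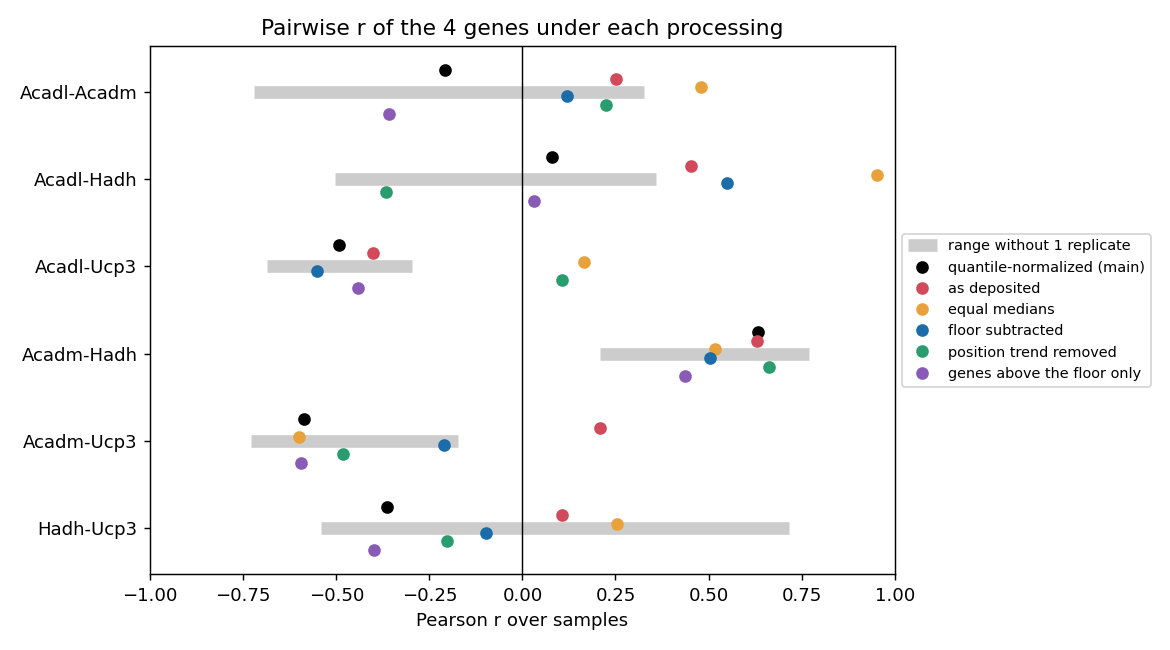
Pearson r over samples for each of the 6 pairs under 6 ways of processing (points) and the range with 1 replicate left out (grey bars). All values for Acadm and Hadh lie above 0, while each of the other pairs has values on both sides of 0.

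Other genes of fatty acid handling and of mitochondria were taken from fixed lists. On the array were 8 further fatty acid genes, of which Cd36, Fabp3, Fabp4, Lpl and Dgat1 were above the floor and Cpt1b, Ppara and Lipe near it. There were 6 mitochondrial genes, of which Cox4i1, Cox5b, Cox6a2, Mdh2 and Mb were above the floor and Tfam near it. Of the 56 relations between these 14 genes and the 4 members, 10 had an unadjusted exact p under 0.05, which is 17.9% against 11.3% of all gene pairs, and 0 passed after adjustment. All 10 were positive, and the share of positive relations among all pairs at that level was not examined. They include genes near the floor, Lipe with Acadm, on adjoining spots, and Ppara and Cpt1b with Acadl. The share lay below that of all pairs in deposited values, at 10.7% against 55.3%, and with the floor subtracted, at 6.25% against 10.5%. It lay above that of all pairs with equal medians, at 39.3% against 16.9%, and with the position trend removed, at 21.4% against 10.9%. Among genes above the floor alone it was 15% against 9.86%.

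For Acadl, 3 of 8 fatty acid genes reached an unadjusted exact p under 0.05 with r above 0, against 13.9% of the 201 other genes, and 0 of 6 mitochondrial genes did. Its most similar gene above the floor was Lpl, lipoprotein lipase, which frees fatty acids from circulating lipoproteins (r = 0.813, exact permutation p = 0.0214, adjusted p = 0.376; rho = 0.898, exact permutation p = 0.0131). Without replicates 1 and 7 that r was 0.619. Lpl missed the unadjusted threshold in deposited values, at 0.558, and with the floor subtracted, at 0.649 (exact permutation p = 0.184 and 0.113). It also did so with the position trend removed, at 0.649, and without replicate 1, at 0.677 (exact permutation p = 0.111 and 0.125). It passed with equal medians, at 0.934, and among genes above the floor alone, at 0.8185 (exact permutation p = 0.00119 and 0.0167). Vldlr, a lipoprotein receptor, and Ldhb, the heart-type lactate dehydrogenase subunit, followed at 0.799 and 0.773 (adjusted exact permutation p = 0.426 and 0.397). Without replicates 1 and 7 they were -0.606 and 0.279, and in deposited values 0.218 and 0.299. Of the genes above the floor, myoglobin (Mb) had the lowest r, at -0.748 (adjusted exact permutation p = 0.475), and it was 0.152 in deposited values. Lpl lies 2 letters from Acadl on the grid.

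For Acadm, 2 of 8 fatty acid genes and 1 of 6 mitochondrial genes reached that level with r above 0, against 5.47% of the 201 other genes. Its most similar gene above the floor was Aldoc, an aldolase of glycolysis, at r = 0.923 (exact permutation p = 0.00734, adjusted p = 0.343; rho = 0.857, exact permutation p = 0.0238). Among these genes Cd36, the fatty acid translocase of the cell surface, followed at 0.870 (adjusted exact permutation p = 0.376). Mdh2, mitochondrial malate dehydrogenase, stood at 0.812 (adjusted exact permutation p = 0.381). These 3 kept a positive r without replicates 1 and 7, at 0.801, 0.912 and 0.635. In deposited values, where 46.2% of all gene pairs passed the adjusted threshold, they were at 0.875, 0.682 and 0.847. With the position trend removed they were at 0.618 (exact permutation p = 0.133), 0.910 and 0.791. Without replicate 7 alone they were at 0.861, 0.751 and 0.616. Cd36 and Mdh2 then missed the unadjusted threshold (exact permutation p = 0.0972 and 0.189). Aldoc lies 1 number and 5 letters from Acadm on the grid, Cd36 3 letters and Mdh2 1 number and 4 letters. Cd36 was lowest in replicate 3, at 0.46%, and highest in replicate 6, at 1.35%, with a median of 0.88%. The lowest r among genes above the floor was with Eno2, an enolase, at -0.697 (adjusted exact permutation p = 0.498), and it was 0.176 in deposited values.

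For Hadh, 1 of 8 fatty acid genes and 2 of 6 mitochondrial genes reached that level with r above 0, against 4.48% of the 201 other genes. Cox5b, a subunit of cytochrome oxidase, was the most similar gene above the floor at r = 0.929 (exact permutation p = 0.00238, adjusted p = 0.318; rho = 0.962, exact permutation p = 0.00238), but r was -0.223 in deposited values. Slc2a2, a glucose transporter, followed at 0.878 (adjusted exact permutation p = 0.364), on the spot next to that of Hadh. Its r was 0.437 without replicates 2 and 7, 0.530 without replicate 7 and 0.255 in deposited values. Fabp4, the fatty acid binding protein of adipocytes and capillaries, stood at 0.865 (adjusted exact permutation p = 0.381) and at -0.419 without replicates 2 and 7. Of the adipocyte markers, Fabp4 and Pparg were on the array and Fabp4 alone was above the floor. Their summed signal ran from 0.43% to 0.70%, and their part in the result was not tested. Mdh2 was the other mitochondrial gene, at 0.853 (adjusted exact permutation p = 0.376) and at 0.212 without replicates 2 and 7. Among genes above the floor, the lowest r was with titin, Ttn, at -0.768 (adjusted exact permutation p = 0.402), and it was 0.124 in deposited values.

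For Ucp3, 1 of 8 fatty acid genes and 0 of 6 mitochondrial genes reached that level with r above 0, against 2.49% of the 201 other genes. That gene was Dgat1, an enzyme that completes triglyceride synthesis, at r = 0.875 (exact permutation p = 0.00714, adjusted p = 0.343; rho = 0.865, exact permutation p = 0.0159). Dgat1 ran from 0.08% in replicate 5 over a median of 0.13% to 0.44% in replicate 7, the same extreme samples as Ucp3. Of the genes above the floor, Eno2 followed at 0.818 and Pole2, a DNA polymerase subunit, at 0.653 (adjusted exact permutation p = 0.397 and 0.518). Dgat1 lies 1 number and 1 letter from Ucp3 on the grid, Pole2 2 letters away and Eno2 3 numbers and 1 letter away. With the position trend removed, Dgat1 fell short of the unadjusted threshold, at r = 0.300 (exact permutation p = 0.497). It also did so without replicate 7, at 0.692 (exact permutation p = 0.1), and leaving out both replicates 5 and 7 gave 0.527. Without replicate 7, r with Pole2 was 0.0903, and with the position trend removed it was -0.303. Rps29, a ribosomal protein gene, had the lowest r above the floor, at -0.841 (adjusted exact permutation p = 0.376), and it was 0.127 without replicates 5 and 7. In deposited values Dgat1, Eno2, Pole2 and Rps29 passed the adjusted threshold with Ucp3 (adjusted exact permutation p = 0.00863, 0.0162, 0.0386 and 0.0212), a scale on which 46.2% of the 20503 gene pairs passed.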

How the data were processed

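For each spot of each array the authors deposited a linear ratio, which the file's own sums show to be the spot's signal relative to the array's summed signal without the 28S ribosomal RNA spot and 1 unnamed spot. No source used here states the image analysis, background treatment or filters. Of 223 spots, 205 had a gene symbol in the platform annotation, for 203 genes. The Entrez identifiers of all 4 members were found in the RefSeq table. The members and gene lists were chosen with earlier results of these data known. Values were quantile-normalized over all spots and taken as log2, with no pseudocount, in Python 3.11.15 with numpy 2.4.6 and scipy 1.17.1. Pearson's r was tested by exact permutation over 5040 pairings, two-sided, with Benjamini-Hochberg adjustment across all gene pairs. The code was checked on simulated arrays. Levels and ratios are from deposited values. Named genes were the members, for each the 3 genes with the highest and the 1 with the lowest r above the floor, and listed pathway genes above the floor. Alternatives were deposited values, equal medians, floor subtraction, a position trend, genes above the floor alone, and leaving out each replicate. The files hold no counts, so the number of arrays limits the precision.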

Additional observations from a re-analysis of the deposited data

Results flagged for a closer look

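Of 23 values examined, those of the 4 members, the Acadl to Acadm ratio and the other named genes above the floor, 1 had a sample far from the other 6. Rps29, the least similar gene to Ucp3, was low in replicate 7, with a gap to the nearest sample of 0.639 times its range in quantile-normalized log2 values. Its deposited signal there was 1.29%, against 1.92% to 2.96% in the others. About 1 in 20 such values would stand apart among independent normal samples. None of the 4 members and not their ratio did so.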

How the results depend on the processing

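Under 12 alternatives for each of the 6 member pairs, 72 values in all, 13 changed sign and 0 passed the adjusted threshold. In deposited values r was 0.251 for Acadl-Acadm, 0.207 for Acadm-Ucp3 and 0.107 for Hadh-Ucp3. With equal medians it was 0.481 for Acadl-Acadm, 0.166 for Acadl-Ucp3 and 0.254 for Hadh-Ucp3. With the floor subtracted it was 0.119 for Acadl-Acadm. With the position trend removed it was 0.226 for Acadl-Acadm, -0.367 for Acadl-Hadh and 0.108 for Acadl-Ucp3. With 1 replicate left out, r ranged from -0.722 to 0.326 for Acadl-Acadm, highest without replicate 1, from -0.503 to 0.360 for Acadl-Hadh and from -0.542 to 0.715 for Hadh-Ucp3. The turn to the other sign came without replicate 7 in the last 2 pairs. It ranged from -0.686 to -0.297 for Acadl-Ucp3, from 0.209 to 0.771 for Acadm-Hadh and from -0.730 to -0.173 for Acadm-Ucp3.

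The SD of the log2 Acadl to Acadm ratio, 0.66, was 0.62 after quantile normalization and 0.82 with the floor subtracted, but 0.34 with the position trend removed. It ranged from 0.51 to 0.72 without 1 replicate. The 10 relations to listed genes with an unadjusted exact p under 0.05 became 6 in deposited values (10.7% against 55.3% of all gene pairs), 22 with equal medians (39.3% against 16.9%) and 3 of 48 with the floor subtracted (6.25% against 10.5%). They were 6 of 40 among genes above the floor (15% against 9.86%) and 12 with the position trend removed (21.4% against 10.9%). The share thus lay below that of all pairs in deposited values and with the floor subtracted. They ranged from 7 to 11 without 1 replicate. Some relations to similar genes changed sign. In deposited values r was 0.152 for Acadl with Mb, 0.176 for Acadm with Eno2, -0.223 for Hadh with Cox5b and 0.124 for Hadh with Ttn. With equal medians it was 0.932 for Acadl with Mb, 0.915 for Hadh with Ttn and 0.108 for Ucp3 with Rps29. With the floor subtracted it was 0.236 for Acadl with Mb, -0.0138 for Hadh with Cox5b and 0.256 for Hadh with Ttn. With the position trend removed it was -0.303 for Ucp3 with Pole2. The causes were not tested. Floor subtraction leaves fewer genes, since values at the floor have no log. The title codes set apart 1 sample, replicate 5, so no value within that code exists. No paired analysis was possible because there is 1 group.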

Other observations

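Among the listed genes near the floor, named here after their values were seen, Lipe, hormone-sensitive lipase, followed Acadm most closely. Its deposited signal ran from 0.03% in replicate 5 to 0.18% in replicate 1, and r was 0.985 (exact permutation p = 0.000397, adjusted p = 0.318 over all gene pairs; rho = 0.991, exact permutation p = 0.000794), and 0.976 without replicates 1 and 7. The Lipe spot, at number 20, letter C, adjoins that of Acadm. On 0 of the 7 arrays was Lipe more than 2 times above the floor.

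Ppara, the fatty acid receptor, gave r = 0.893 with Acadl (exact permutation p = 0.00714, adjusted p = 0.343; rho = 0.815, exact permutation p = 0.0381), 0.769 without replicates 1 and 7 and 0.108 in deposited values. Its deposited signal ran from 0.07% to 0.17%, near the floor on 4 of the 7 arrays. Cpt1b, the muscle carnitine palmitoyltransferase that admits long chains to mitochondria, ran from 0.20% to 0.32%. It gave r = 0.778 with Acadl (exact permutation p = 0.0298, adjusted p = 0.390; rho = 0.741, exact permutation p = 0.0738), and -0.0198 without replicates 1 and 7.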
